A study of Mus musculus with 3 samples.

Results

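The heat shock proteins, J-domain (DnaJ) proteins and chaperonins were described in ribosome-bound messages of the mouse prefrontal cortex. Members were taken by gene symbol. They were every symbol that starts with Hspa, Hspb, Hspd, Hspe, Hsph, Hsp90 or Dnaj, or with Cct and a digit, and also Tcp1 and Stip1, leaving out pseudogenes, Hspbap1 and Hspbp1. No measured value entered the rule, which found 83 of 32531 gene symbols.

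The messages came from translating ribosome affinity purification (TRAP), in which polysomes carrying an EGFP-tagged ribosomal protein L10a are pulled down from tissue. In line JX883 the tagged protein is under control of Slc17a6, the gene of the vesicular glutamate transporter VGLUT2. The mice were untreated adults of this 1 transgenic line, and each of the 3 libraries (replicates 1, 2 and 3) held prefrontal cortex of 3 mice. The labels do not say whether different libraries came from separate mice, so the SD over libraries (n = 3) may be technical spread alone. They say nothing of sex, genetic background or exact age. All libraries belong to 1 group of immunopurified RNA. Input RNA and RNA from untagged mice were not analysed here, so a value is a level in the purified RNA and no enrichment over the tissue. In such a bulk sample, fewer cells with a message and less of it per cell cannot be told apart.

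Chaperones bind proteins that are not yet folded, or have lost their fold, and keep them from clumping until they fold, reach a partner or are degraded. HSP70 proteins do so in cycles of ATP hydrolysis that J-domain proteins start and that HSP110 proteins, as nucleotide exchange factors, reset. HSP90 takes over late folding intermediates such as kinases and steroid receptors, and the co-chaperone Stip1 (HOP) links it to HSP70. HSP60 with its lid HSP10 folds proteins inside mitochondria, the ring complex TRiC folds actin and tubulin in the cytosol, and small HSPs hold unfolded proteins without ATP. In neurons, HSC70 (Hspa8) together with J-domain proteins also strips clathrin from endocytosed vesicles and maintains the SNARE proteins of synaptic release.

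The libraries of replicates 1, 2 and 3 held 12592174, 8964137 and 12648577 counts in named genes. Levels are given as CPM (counts scaled to a common library total) for a gene across libraries. Orders and differences between genes are given as TPM, which also divide by the summed exon length of the gene (its merged exons), except where a rank or count in CPM is named as such. The upper limit for a gene without counts is 3 counts, which is 0.238, 0.335 and 0.237 CPM in the same order and covers counting error only. Slc17a6 itself stood at 857, 723 and 913 CPM. The summed level of 6 excitatory neuron markers was 4304 to 4745 CPM and that of 6 GABAergic neuron markers 904 to 970 CPM. Astrocyte markers summed to 1315, 1463 and 1502 CPM and oligodendrocyte markers to 326, 459 and 461 CPM, while microglial markers summed to 30.4 to 38.0 CPM with C1qa at 0. Single genes made up most of the excitatory, GABAergic and astrocyte sums, with means of 2884 CPM (Camk2a), 626 CPM (Gad2) and 985 CPM (Slc1a2). Among astrocyte markers Aldoc followed with a mean of 348 CPM, and the others ranged from 5.68 CPM (Aldh1l1) to 50.9 CPM (Slc1a3). Messages of glial marker genes were thus present beside neuronal ones, several of them at low levels. The part of glial messages in the levels below was not tested.

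The promoter sequences shown here are those of members with a binding motif of the regulators that chaperone genes are known for, so that their levels can be read beside them. Heat shock factors bind the heat shock element (HSE), alternating units of GAA and TTC, and the unfolded protein response of the endoplasmic reticulum (ER) acts through the ER stress response element (ERSE). RefSeq windows on GRCm38.p6, from 250 bases before to 50 bases after the start, were found for 68 of the 83 members. Hsp90ab1, Hsp90aa1, Hspa8, Hspa9, Dnajc5 and Cct4 are among those without one. An HSE of 3 units (GAANNTTCNNGAA or TTCNNGAANNTTC, both strands covered) was in the windows of 4 of 68 members (5.88%) and of 0.662% of 27025 genes. The shorter form of 2 units (GAANNTTC or TTCNNGAA), which each longer match also contains, was in 20 of 68 members (29.4%) and in 17.0% of genes. The ERSE (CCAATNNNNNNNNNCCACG, or its reverse complement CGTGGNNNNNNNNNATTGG) was in 3 of 68 members (4.41%) and in 0.137% of genes.

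Hspd1 and Hspe1, the mitochondrial HSP60 and HSP10, lie head to head on chr1 with ends that overlap by 112 bases, and 1 element of 18 bases serves as the HSE match of both windows. Each line gives a gene, its mm10 position and strand, and the sequence 5′ to 3′ in lower case with the HSE match in capitals. Only 30 bases are shown where the window also lies in an annotated exon.
Hspe1, chr1:55088053-55088082, plus strand: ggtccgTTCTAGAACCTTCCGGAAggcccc
Hspd1, the same bases on the minus strand: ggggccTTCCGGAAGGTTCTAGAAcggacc
Dnajb6, chr5:29735844-29735873, plus strand: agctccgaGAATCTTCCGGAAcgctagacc
Hsph1, chr5:149636351-149636380, minus strand: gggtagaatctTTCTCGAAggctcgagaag
In Hspe1 the element began 89 bases before the start, and in Hspd1 144 bases before its more internal start. In Hsph1 the capitals mark a match of 2 units 54 bases before the start, and its match of 3 units reached into the 50 bases after the start.

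The promoters of Hspa1a and Hspa1b, the stress-inducible HSP70 pair, are shown in full because the genes are near-identical copies whose reads are hard to separate. Over 250 bases they were identical at 247 positions (98.8%), and both carry 1 HSE of 2 units, in capitals, 104 bases before the start.
Hspa1a, chr17:34972157-34972406, minus strand: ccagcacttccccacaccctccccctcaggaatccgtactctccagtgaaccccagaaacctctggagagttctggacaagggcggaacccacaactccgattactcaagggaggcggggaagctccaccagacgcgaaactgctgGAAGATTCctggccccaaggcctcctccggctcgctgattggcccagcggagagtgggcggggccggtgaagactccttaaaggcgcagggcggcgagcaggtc
Hspa1b, chr17:34959239-34959488, minus strand: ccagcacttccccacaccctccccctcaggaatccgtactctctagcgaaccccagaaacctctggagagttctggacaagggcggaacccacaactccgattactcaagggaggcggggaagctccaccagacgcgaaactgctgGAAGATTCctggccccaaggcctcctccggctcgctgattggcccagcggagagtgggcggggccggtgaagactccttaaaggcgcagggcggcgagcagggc

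The 3 members with an ERSE all encode proteins of the ER: the HSP70 protein BiP (Hspa5), the HSP90 protein GRP94 (Hsp90b1) and the J-domain protein Dnajc3. Capitals mark the ERSE, of which Hsp90b1 has 1 in each orientation.
Hspa5, chr2:34772020-34772049, plus strand: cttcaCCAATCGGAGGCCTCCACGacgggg
Hsp90b1, chr10:86705510-86705694, minus strand: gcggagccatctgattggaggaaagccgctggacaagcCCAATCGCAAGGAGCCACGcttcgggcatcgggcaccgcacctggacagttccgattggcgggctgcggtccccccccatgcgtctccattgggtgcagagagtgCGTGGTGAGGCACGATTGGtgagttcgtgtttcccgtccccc
Dnajc3, chr14:118937682-118937931, plus strand: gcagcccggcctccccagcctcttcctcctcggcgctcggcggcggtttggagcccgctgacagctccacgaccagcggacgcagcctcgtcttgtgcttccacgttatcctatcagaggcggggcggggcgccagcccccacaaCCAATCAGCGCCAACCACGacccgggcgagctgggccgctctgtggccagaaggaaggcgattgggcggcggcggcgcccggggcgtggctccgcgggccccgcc
Motif matches are descriptions of these letters and not measured binding sites. The genes that carry an HSE of 3 units differed widely in level per length, from 71.1 ± 8.65 TPM (SD, n = 3) for Dnajb6 to 665 ± 19.8 TPM for Hsph1. For Dnajb6 this became 175 ± 21.0 TPM with the length of its principal transcript, and 35.8% of the 50-base windows of its longest transcript also occur at other loci. The ERSE genes ranged from 88.8 ± 12.8 TPM for Dnajc3 to 616 ± 6.75 TPM for Hsp90b1.

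Of the 83 members, 76 had a count in at least 1 library and 69 (83.1%) reached 1 CPM in every library, against 37.9% of all symbols. A mean of 100 CPM or more was reached by 27 members (32.5%), against 6.60% of all symbols. Together the members took 1.32% ± 0.06 of counts (SD, n = 3), or 13761, 13230 and 12574 CPM in replicates 1, 2 and 3, and the 5 highest members held 46.2% of this. By family, the summed level per length was highest for HSP90 with 4874 ± 301 TPM from 3 genes and for HSP70 and HSP110 with 3865 ± 175 TPM from 14 genes. With principal transcripts this order turned, to 3883 ± 223 TPM for HSP90 and 4169 ± 178 TPM for HSP70 and HSP110. DNAJC proteins followed with 2157 ± 53.7 TPM from 28 genes and TRiC with 1873 ± 85.5 TPM from 10 genes. DNAJB (803 ± 70.3 TPM), DNAJA (742 ± 80.9 TPM) and HSP60 with HSP10 (738 ± 78.9 TPM) had overlapping ranges, although with principal transcripts DNAJB (864 ± 35.0 TPM) was above DNAJA (583 ± 57.9 TPM) and HSP60 with HSP10 (660 ± 68.2 TPM). Stip1 alone stood at 624 ± 4.74 TPM, above the 133 ± 5.44 TPM of all 8 small HSPs together.

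**Figure D1:**
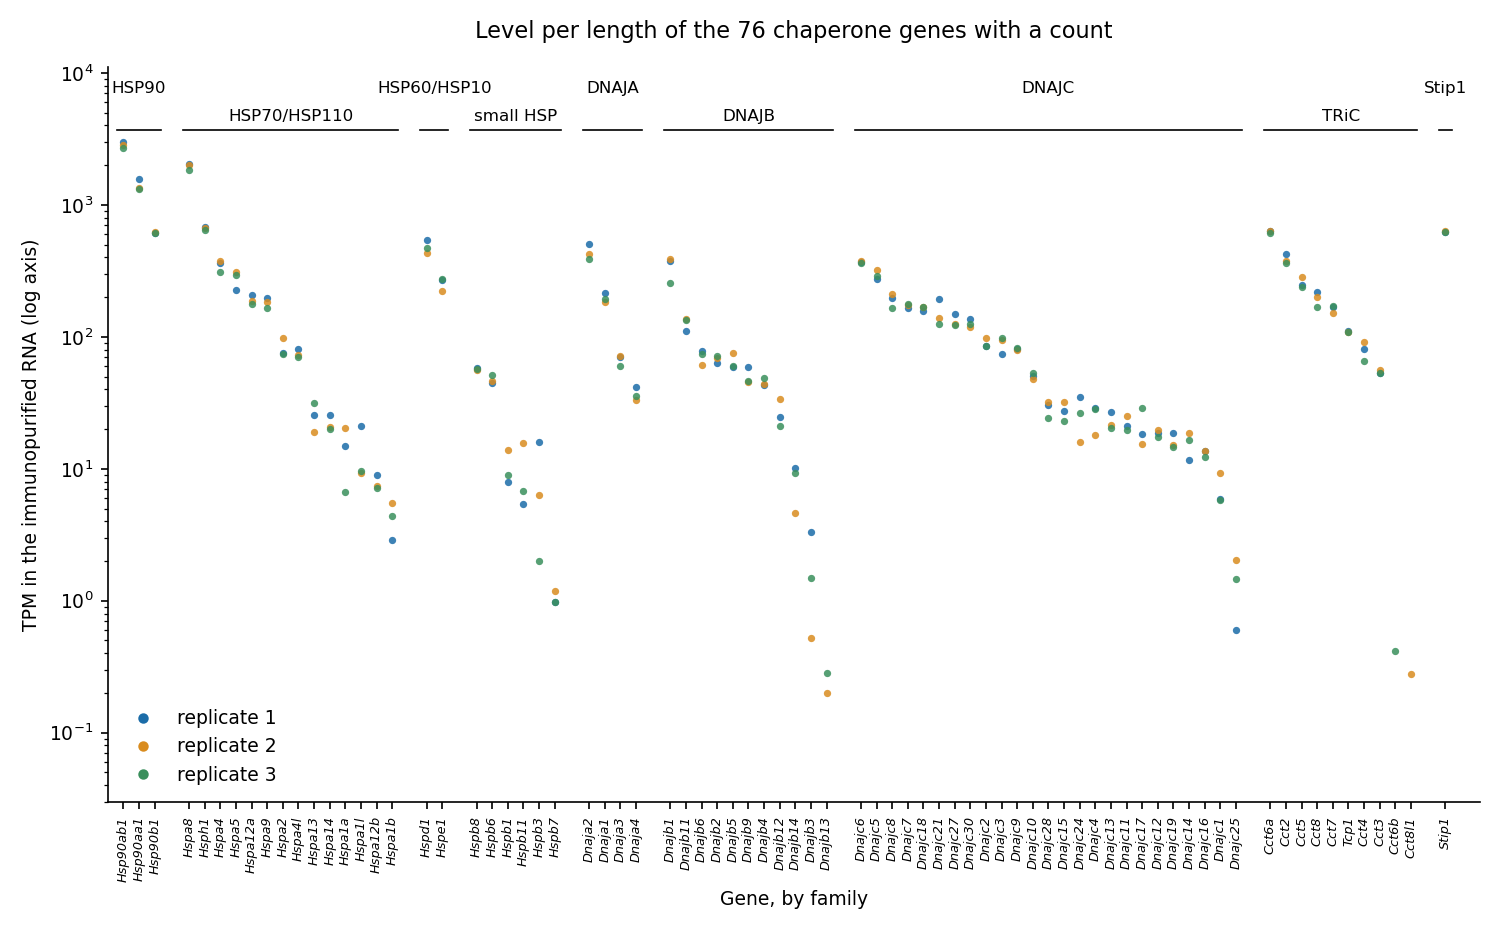
Level per length (TPM, log axis) of the 76 members with a count, by family, with 1 point per library; a library in which a gene has 0 counts has no point. Cytosolic HSP90 and Hspa8 are the highest, and within most families the levels cover more than a factor of 10.

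Hsp90ab1 (chr17:45567775-45573271), the constitutive cytosolic HSP90 beta, was the highest member, with 1851, 1742 and 1644 CPM in replicates 1, 2 and 3 and rank 30 by CPM among all genes. Hsp90aa1 (chr12:110690605-110702728), the stress-inducible cytosolic HSP90 alpha, had 1276, 1070 and 1051 CPM. The ER form Hsp90b1 (chr10:86690209-86705509) had 503, 511 and 507 CPM, and its libraries differed by no more than counting error (coefficient of variation 0.81%, 1.33% from counting alone). Per length, Hsp90ab1 stood at 2849 ± 163 TPM and Hsp90aa1 at 1409 ± 151 TPM, a difference of 1.02 ± 0.08 on the log2 scale (2.03-fold) with every library in this direction. That order depended on how reads of shared sequence are treated. Of the 50-base windows of the longest Hsp90aa1 transcript, 58.5% also occur at other loci, pseudogenes among them, against 4.49% for Hsp90ab1, and no gene was credited with reads that fit several positions. With only unshared exon length in the denominator the difference became -0.18, with Hsp90aa1 above.

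This was 1 of 10 gene pairs compared within libraries. The within-library differences were tested by exact permutation of their signs (two-sided), which cannot go below p = 0.25 with 3 libraries. This value was reached by 9 of the 10 pairs (0.278 after Benjamini-Hochberg adjustment over the pairs), so no pair could pass 0.05. The differences are therefore given with their SD and the number of libraries in each direction.

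**Figure D2:**
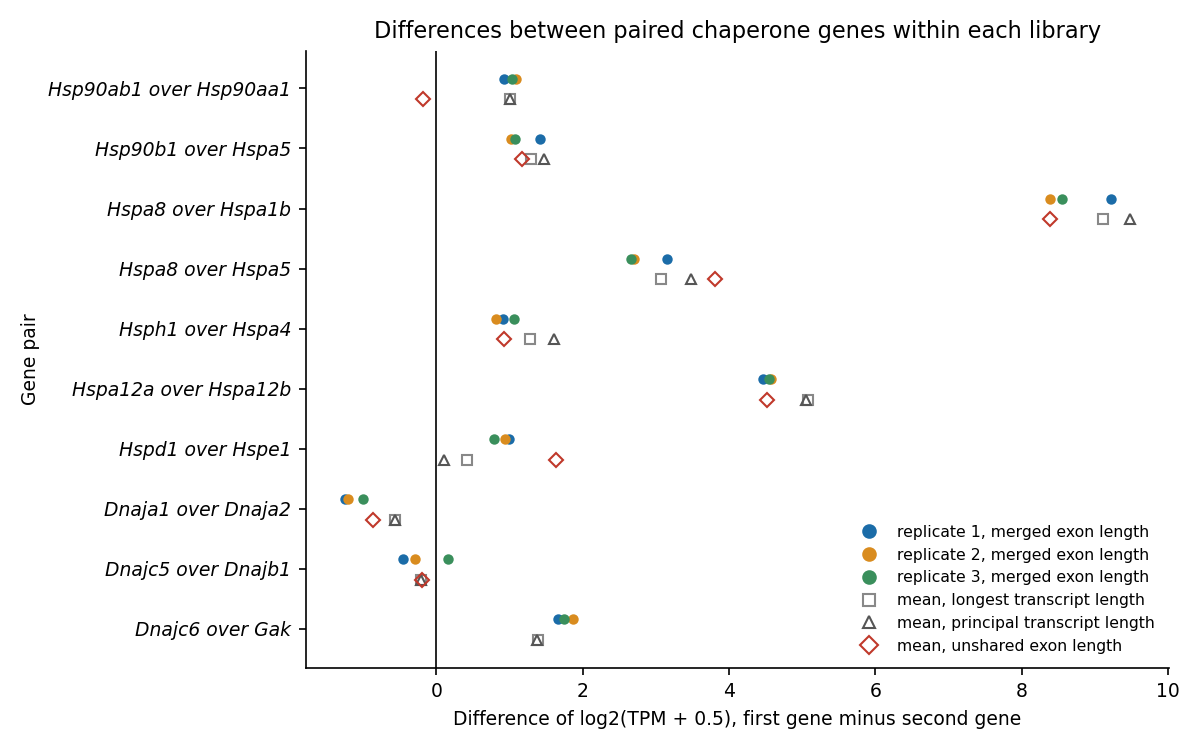
Difference of log2(TPM + 0.5) between the genes of 10 pairs, with circles for the 3 libraries at merged exon length and open symbols for the mean under other gene lengths (no unshared length for Gak). Hspa8 over Hspa1b and Hspa12a over Hspa12b are far from 0 throughout, while Hsp90ab1 over Hsp90aa1 changes side with unshared length and Dnajc5 over Dnajb1 straddles 0.

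All 14 HSP70 and HSP110 members reached 1 CPM in every library, but 1 gene led. Hspa8 (chr9:40800984-40810087), the constitutive HSC70, had 1784, 1754 and 1623 CPM, or 1958 ± 94.7 TPM. Windows shared with other loci made up 49.0% of its longest transcript, spread over 12 other genes. With the length of its principal transcript, Hspa8 stood at 2292 ± 107 TPM, above Hsp90ab1 at 2210 ± 120 TPM, so the order of these neighbours was not settled.

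The stress-inducible pair was low. Hspa1a (chr17:34969190-34972156) had 9.05, 12.3 and 4.03 CPM, and Hspa1b (chr17:34956436-34959238) had 1.67, 3.12 and 2.53 CPM. Hspa1a was highest in replicate 2 and lowest in replicate 3, whereas Hspa1b was lowest in replicate 1. Hspa8 exceeded Hspa1b by 8.72 ± 0.44 on the log2 scale of TPM (422-fold), in 3 of 3 libraries. Shared windows were 60.3% of Hspa1a and 62.3% of Hspa1b, mainly with each other, so the counts of both leave out such reads, and with unshared length the difference was 8.39. The testis-type neighbour Hspa1l, 546 bases from Hspa1a, had 10.6, 4.69 and 4.82 CPM, but 71.9% of its exonic bases overlap a gene on the opposite strand.

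Hspa5 (chr2:34771970-34777547), the ER chaperone BiP that also senses unfolded protein, had 197, 265 and 253 CPM. Replicate 1 was lowest, and the coefficient of variation of 15.2% exceeded the 1.94% from counting alone. Per length, the ER partner Hsp90b1 was higher than Hspa5 by 1.17 ± 0.22 on the log2 scale (2.25-fold) in 3 of 3 libraries. Hspa8 was higher than Hspa5 by 2.84 ± 0.27 (7.14-fold). With principal transcripts these differences were 1.48 and 3.48, and with unshared length 1.17 and 3.81. Hspa9, the mitochondrial HSP70 mortalin, had 173, 163 and 144 CPM.

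Among the HSP110 proteins, Hsph1 (chr5:149614287-149636376) had 1021, 984 and 958 CPM and rank 81 by CPM among all genes. Hspa4 had 411, 425 and 350 CPM. Per length Hsph1 was above Hspa4 by 0.93 ± 0.12 on the log2 scale (1.90-fold) in 3 of 3 libraries, and neither has a window shared with another locus. This difference was 1.28 with longest and 1.60 with principal transcripts. The third HSP110 gene, Hspa4l, stood at 74.3 ± 5.66 TPM. Hspa12a, a distant relative of HSP70, had 390, 352 and 334 CPM, and exceeded its paralogue Hspa12b (6.75, 5.58 and 5.38 CPM) by 4.52 ± 0.06 on the log2 scale of TPM (23.0-fold). The 5 highest members of this family by TPM were Hspa8, Hsph1, Hspa4, Hspa5 and Hspa12a, and the lowest was Hspa1b at 4.26 ± 1.29 TPM. Hspa2, Hspa13 and Hspa14 lay between, at 82.6 ± 13.2, 25.2 ± 6.16 and 22.1 ± 3.13 TPM.

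The HSP60 gene Hspd1 (chr1:55077835-55088243) had 293, 232 and 255 CPM, and the HSP10 gene Hspe1 (chr1:55088132-55091307) had 82.0, 67.4 and 82.5 CPM. Both were lowest in replicate 2. Per length Hspd1 was above Hspe1 by 0.91 ± 0.11 on the log2 scale (1.87-fold), but the choice of length set this value. With principal transcripts the difference was 0.10, and with unshared length 1.64, since 44.8% of the Hspd1 windows and 8.20% of the Hspe1 windows occur elsewhere.

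Of the 8 small HSPs, 4 reached 1 CPM in every library. Hspb8, a partner of Bag3 in chaperone-assisted autophagy, had 23.1, 22.1 and 22.8 CPM, and Hspb6 (HSP20) had 21.0, 21.5 and 24.1 CPM. These stayed within counting error or close to it, and per length they stood at 56.9 ± 1.2 and 47.3 ± 3.58 TPM, an order that turned with principal transcripts (39.8 ± 0.78 and 52.0 ± 4.04 TPM). Hspb1 (HSP27), the classical stress-induced small HSP, had 1.67, 2.90 and 1.90 CPM, though 51.6% of its windows occur at other loci. Hspb11, which despite its name is an intraflagellar transport protein, had 2.30, 6.58 and 2.85 CPM. Hspb3 had 2.54, 1.0 and 0.316 CPM from 32, 9 and 4 counts, the widest range of any member tested (1.89 on the log2 scale), and did not pass the test of variation (adjusted p = 1.0). Hspb7 was the lowest with a count, at 1.05 ± 0.12 TPM, and Hspb2 and Hspb9 had 0 counts in every library. The alpha crystallins, small HSPs of other symbols, were split: Cryab, an abundant glial protein, had 26.3, 38.7 and 43.1 CPM and the lens form Cryaa had 0. Cryab was lowest in the library with the lowest oligodendrocyte markers, and the part of these cells in it was not tested.

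In class A of the J-domain proteins, Dnaja1 and Dnaja2 are the farnesylated main partners of cytosolic HSP70. Dnaja1 had 378, 320 and 342 CPM and Dnaja2 had 310, 256 and 238 CPM, both highest in replicate 1. Per length Dnaja1 was below Dnaja2, by -1.16 ± 0.13 on the log2 scale with 0 of 3 libraries in the other direction. The difference was -0.57 with longest and with principal transcripts and -0.87 with unshared length. In CPM, which ignores the longer Dnaja1 gene model, it was 0.38. Of the Dnaja1 windows, 18.3% occur at other loci, and 10.8% of its exonic bases overlap other genes. The mitochondrial Dnaja3 stood at 67.5 ± 6.03 TPM and Dnaja4 at 36.7 ± 4.13 TPM, the latter with 44.1% of exonic bases overlapping another gene.

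Class B was led by Dnajb1 (chr8:83608193-83612653), the stress-inducible HSP40 that directs HSP70 to aggregates, with 246, 255 and 168 CPM. Replicates 1 and 2 lay close together and replicate 3 was lower. Its unadjusted p of 0.0233 in edgeR's goodness of fit did not survive adjustment (adjusted p = 0.537), and without replicate 3 it was 0.780. Next by TPM were Dnajb11, an ER co-factor of BiP (127 ± 13.9 TPM), Dnajb6, which holds back polyglutamine aggregation (71.1 ± 8.65 TPM), Dnajb2 (67.8 ± 4.22 TPM) and Dnajb5 (65.0 ± 9.31 TPM), of which the last 3 had overlapping ranges. This order rested on the gene length used. With principal transcripts Dnajb6 stood at 175 ± 21.0 TPM, above Dnajb11 at 106 ± 11.9, Dnajb4 at 105 ± 7.92, Dnajb2 at 101 ± 6.57 and Dnajb5 at 76.1 ± 11 TPM. Dnajb14, an ER membrane protein, had 33.0, 14.7 and 29.6 CPM with replicate 2 lowest. Its unadjusted p of 0.0173 was the smallest of any member (adjusted p = 0.505, edgeR goodness of fit), and without replicate 2 it was 0.705. Dnajb13, a protein of sperm and ciliary axonemes, was the lowest with a count (3 counts in all, in replicates 2 and 3), and Dnajb7 and Dnajb8 had 0 counts.

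In class C, the 2 highest of 28 members by merged exon length act at the synapse or on clathrin. Dnajc6 was also the highest with longest and with principal transcripts, but Dnajc5 was not second there. With longest transcripts Dnajc7 (273 ± 10.4 TPM) was above Dnajc5 (235 ± 18.5 TPM), and with principal transcripts Dnajc7 (235 ± 9.33 TPM), Dnajc21 (231 ± 54.8 TPM) and Dnajc8 (227 ± 29.1 TPM) had higher means than Dnajc5 (203 ± 16.3 TPM). Dnajc6 (auxilin, chr4:101496648-101642799), the neuronal J-protein that recruits Hspa8 to clathrin coats, had 444, 453 and 440 CPM, and the libraries differed about as much as counting error (1.53% against 1.42%). Gak, its ubiquitous relative and the highest of 5 J-domain genes of other names, had 109 ± 6.28 TPM. The iron-sulfur co-chaperone Hscb among them stood at 59.7 ± 7.60 TPM. Auxilin at 369 ± 6.22 TPM was above Gak by 1.76 ± 0.10 on the log2 scale (3.38-fold), in 3 of 3 libraries. This difference was 1.39 with longest and 1.38 with principal transcripts. Dnajc5 (chr2:181520485-181555133), the cysteine string protein of synaptic vesicles, had 391, 452 and 409 CPM. Per length it was at 294 ± 23.0 TPM and not separable from Dnajb1, with a difference of -0.19 ± 0.32 on the log2 scale, above 0 in replicate 3 alone (exact permutation of signs, p = 0.5). Its testis-type paralogues Dnajc5b and Dnajc5g had 0 counts in every library.

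The next in class C were Dnajc8, a splicing-associated protein, at 191 ± 24.6 TPM, Dnajc7, which binds both HSP70 and HSP90, at 173 ± 6.38 TPM, and Dnajc18 at 164 ± 6.90 TPM. Dnajc7 was above Dnajc18 in every library, by a wider margin with principal transcripts (235 ± 9.33 against 114 ± 5.11 TPM), while the ranges of Dnajc8 and Dnajc21 overlapped those of both at merged exon length. Dnajc21, a factor of ribosome biogenesis, had 190, 136 and 122 CPM with replicate 1 highest. Its unadjusted p was 0.0257 (adjusted p = 0.554, edgeR goodness of fit), and without replicate 1 it was 0.534. Dnajc13, an endosomal protein, had 66.2, 52.2 and 49.7 CPM. Dnajc12, a co-chaperone of aromatic amino acid hydroxylases, had 17.1, 17.8 and 16 CPM. Dnajc25 was the lowest with a count, with 0.556, 1.90 and 1.34 CPM, and Dnajc22 had 0 counts. The other members of class C lay between 7.01 TPM (Dnajc1) and 132 TPM (Dnajc27).

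The TRiC complex is built from 8 different subunits, present once in each of its rings, and all 8 genes of the complex reached 1 CPM in every library. Cct6a (chr5:129786998-129846371) had 470, 469 and 451 CPM and Cct2 224, 195 and 189 CPM. Per length the order was Cct6a (627 ± 14 TPM), Cct2 (388 ± 34.7), Cct5 (256 ± 23.7), Cct8 (196 ± 25), Cct7 (164 ± 9.79), Tcp1 (109 ± 1.65), Cct4 (79.2 ± 13.4) and Cct3 (54.3 ± 1.97). Message levels of the subunits thus spanned 11.5-fold, and Cct6a was above every other subunit in every library. The span was 8.92-fold with longest transcripts and 6.90-fold with principal transcripts. Principal lengths also put Cct7 (297 ± 17.5 TPM) above Cct5 (249 ± 23.3 TPM) and Cct4 lowest (87.3 ± 14.8 TPM). Where no principal transcript was annotated, the longest was used. The annotation types Cct6a as a processed transcript, and its longest and principal lengths are both 2454 bases. The 2 lengths are also the same for Cct2, Cct4, Cct5 and Cct8. Of the exonic bases of Cct6a, 15.3% overlap other genes, Psph on the opposite strand and Snora15, and without Cct6a the span was 7.15-fold by merged exons, 4.88-fold by longest and 3.78-fold by principal transcripts. The testis-type paralogues Cct6b and Cct8l1 had 2 and 1 counts in all.

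**Figure D3:**
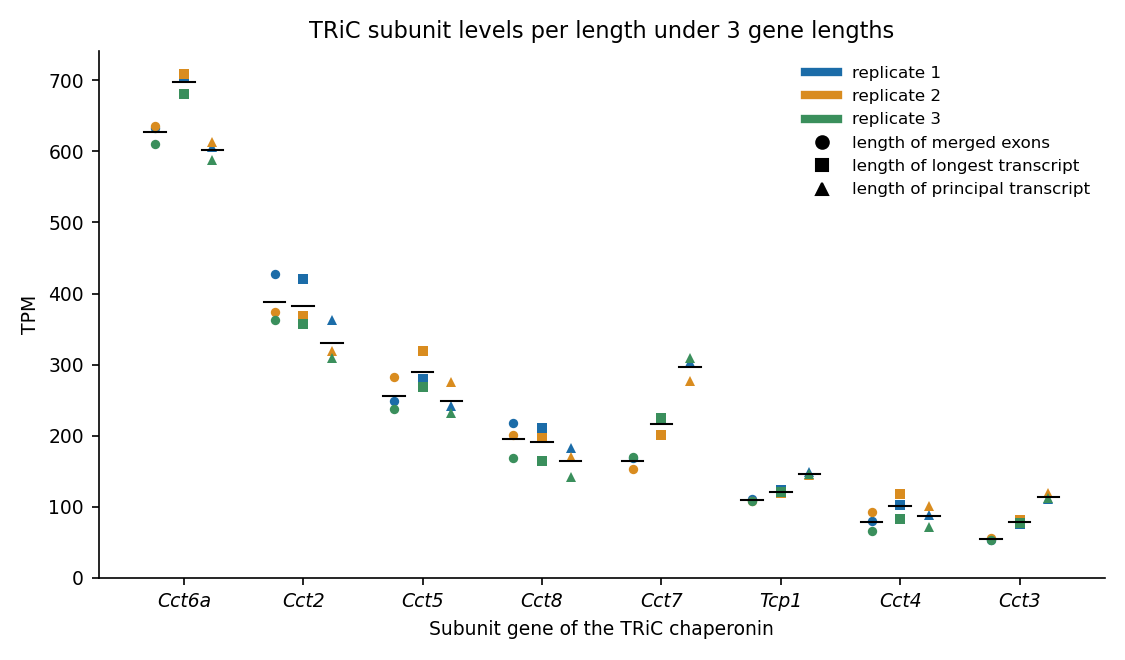
TPM of the 8 TRiC subunit genes in each library under 3 definitions of gene length; short bars are means over the 3 libraries. Cct6a is highest with each length, whereas from merged exons to principal transcripts Cct7 moves from 164 to 297 TPM and Cct3 from 54.3 to 114 TPM.

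Stip1 (chr19:7020702-7039967), which bridges HSP70 and HSP90, had 269, 270 and 267 CPM. It had the lowest coefficient of variation of any member tested, 0.67%. As counting alone gives 1.82%, this rank may be counting error. Other co-chaperones had larger relative spreads, which were not set against their counting error. Of 27 listed, 26 reached 1 CPM in every library, against 37.9% of all symbols. The edgeR fit called 0 of 27 variable, against 0.244% of all genes tested. At an unadjusted p of 0.05 it held 1 (Hspbap1), against 7.22% of all genes tested. Per length the nucleotide exchange factor Bag1 (701 ± 104 TPM) and the neuronal HSP70 partner Sgtb (687 ± 76.5 TPM) were highest, with overlapping ranges. The ubiquitin ligase Stub1 (CHIP, 3.58 ± 1.23 TPM) and Hspbap1 (1.86 ± 1.35 TPM) were lowest. All 9 listed genes of prefoldin and of TRiC helpers passed 1 CPM, from Pfdn5 at 275 ± 33.4 TPM to Pdcl at 15.0 ± 4.98 TPM. Of the heat shock factors, Hsf1, the main activator of the heat shock response, stood at 43.4 ± 5.87 TPM, Hsf4 at 26.7 ± 10.1 TPM and Hsf2 at 16.7 ± 4.03 TPM. Hsf3 had 0 counts, and Hsbp1, a small protein that binds heat shock factor trimers, was highest of this list at 1958 ± 93.3 TPM. In the mitochondrial folding list, 8 of 8 passed 1 CPM, from the mitochondrial HSP90 protein Trap1 at 67.8 ± 11.7 TPM to the nucleotide exchange factor Grpel2 at 13.4 ± 2.86 TPM. The protease subunits Clpp and Clpx stood at 63.4 ± 8.60 and 58.8 ± 2.09 TPM, with overlapping ranges.

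Variation between the libraries was tested for 14774 genes with edgeR's goodness of fit of 1 common mean. The fit judges a gene against the spread usual at its level in these same libraries. It called 36 of the 14774 genes (0.244%) at an adjusted p of 0.05 and 0 of the 71 members that could be tested. The smallest adjusted p of a member was 0.505. In simulated counts of 14184 genes this fit recovered 21% of 100 genes shifted 2-fold in 1 library and 83% of 100 shifted 4-fold. It made 11 false calls. A shift of 2-fold in a member would thus often go uncalled. The shifted genes were drawn from better counted ones, with the spread that the fit assumes. Recovery for members at a few counts was not measured. At an unadjusted p of 0.05, 3 members passed (4.23%), namely Dnajb14, Dnajb1 and Dnajc21, against 7.22% of all genes tested. At 100 CPM or more this order turned, with 2 of 27 members (7.41%) against 62 of 2148 genes (2.89%). A limma variance test called 12 genes (0.0812%) and 0 members, and at an unadjusted p of 0.05 it held 4 of 71 members and 721 of 14774 genes. The median range of a member over the libraries was 0.29 on the log2 scale, against 0.51 for all genes tested. Members at 100 CPM or more had a median range of 0.22, equal to the 0.22 of all genes at that level.

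**Figure D4:**
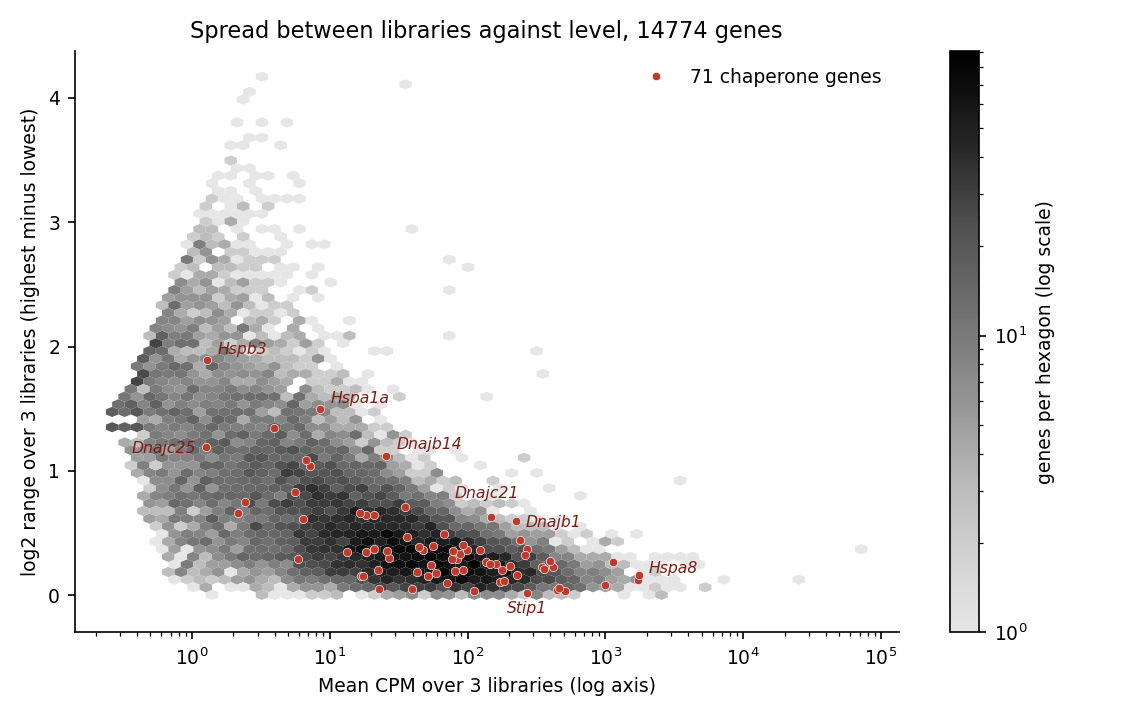
Range over the 3 libraries (log2 of TMM-scaled CPM + 0.5, highest minus lowest) against mean CPM (log axis) for 14774 genes, as grey hexagons, and the 71 members tested, as red points. Members lie inside the cloud of genes of like level, with Dnajb14, Dnajb1, Dnajc21 and Hspa1a at its upper edge.

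Replicate 3 held the lowest value of 35 of the 71 members (49.3%), against 33.4% of all genes tested. Among members at 100 CPM or more it was lowest for 17 of 27 (63.0%), against 38.1% of all genes at that level. The median deviation of a member from its own mean was 0.04, 0.02 and -0.08 in replicates 1, 2 and 3 on the log2 scale, where all genes tested had medians within 0.01 of 0. Replicate 3 was lowest for 10 of 14 HSP70 and HSP110 members, 13 of 25 DNAJC members and 5 of 8 TRiC members, but for 2 of 9 DNAJB members and 0 of 2 of HSP60 and HSP10. Leaving the ribosomal RNA precursor Rn45s out of the totals gave 31 of 71 members (43.7%), against 32.0% of all genes under the same totals. This pattern was noticed in these libraries and has no test. Beside it, 6 excitatory neuron markers had median deviations of 0.08, 0.03 and -0.11 in replicates 1, 2 and 3, with 2 of 6 above their own mean in replicate 3, although Camk2a, Slc17a6 and the sum were highest there. Of 6 astrocyte markers, 4 were above their own mean in replicate 3, with medians of -0.13, 0.02 and 0.29. The 10 immediate early genes listed summed to 2280, 2367 and 1855 CPM, and the highest and lowest of them, in CPM and per length, were Egr1 (1293, 1291 and 956 CPM) and Ier2 (2.62, 0 and 0.474 CPM). The median deviations of these 10 genes were 0.39, 0.12 and -0.31 in replicates 1, 2 and 3. In replicate 3, 2 of the 10 were above their own mean. At an unadjusted p of 0.05 the edgeR goodness of fit held 6 of the 10, against 7.22% of all genes tested. Of these 10 genes, 2 were called variable, against 0.244% of all genes tested. They were Egr2 (29.4, 36.5 and 9.01 CPM, adjusted p = 0.0126) and Nr4a1 (122, 70.1 and 53.8 CPM, adjusted p = 0.0396, both edgeR goodness of fit). The part of these markers and genes in the chaperone levels was not tested.

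**Figure D5:**
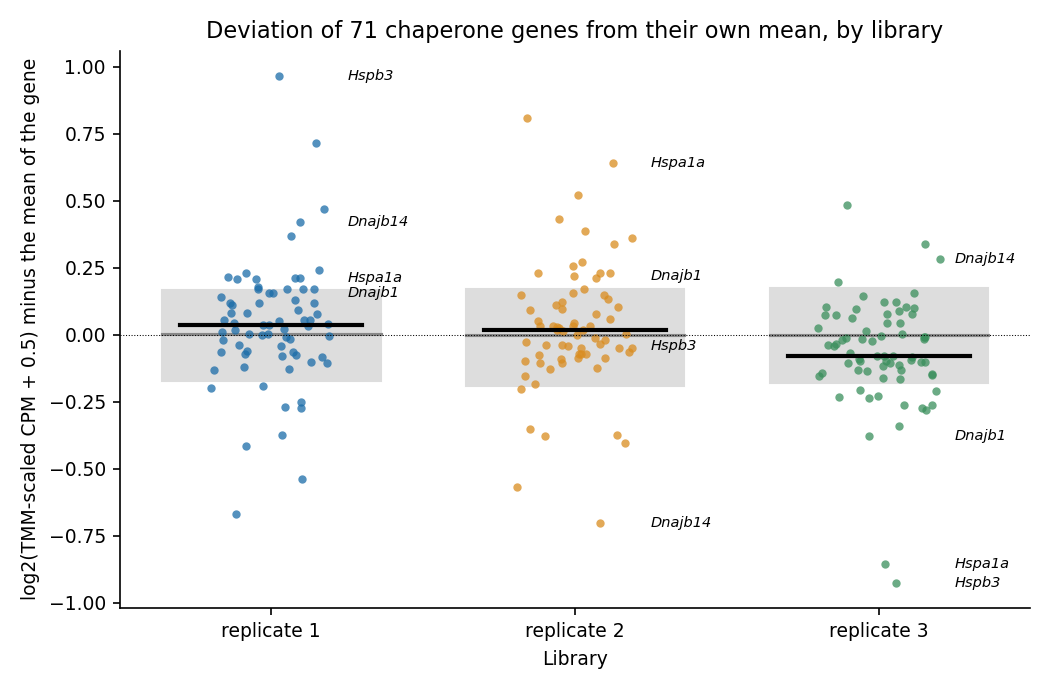
Deviation of 71 members from their own mean over the libraries (log2 of TMM-scaled CPM + 0.5), with 1 point per gene, black bars for the member medians, and grey boxes and lines for the quartile range and median of all genes tested. The member median is -0.08 in replicate 3 and slightly above 0 in replicates 1 and 2.

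The deviations were also summarised by compartment, as a description, for listed members that do not cover every protein of a compartment. Of 8 mitochondrial members (Hspd1, Hspe1, Hspa9, Dnaja3, Dnajc11, Dnajc15, Dnajc19 and Dnajc28), 1 was above its own mean in replicate 3, with median deviations of 0.08, 0.06 and -0.14 in replicates 1, 2 and 3. Of 8 ER members (Hspa5, Hsp90b1, Hspa13, Dnajb9, Dnajb11, Dnajc1, Dnajc3 and Dnajc10), 6 were above it in replicate 3 and 2 in replicate 1, with medians of -0.11, 0.06 and 0.08. Among the ERSE carriers, Dnajc3, an inhibitor of the kinase PERK, had 78.1, 98.6 and 103 CPM and Hspa5 was likewise lowest in replicate 1, but Hsp90b1 was level. The 20 other ER folding and stress genes had medians of -0.04, -0.06 and 0.10, and levels from Canx (calnexin, 310 ± 51.4 TPM) to Ern1 (IRE1, 1.47 ± 0.52 TPM). None of these 28 ER genes, 8 mitochondrial members or 8 mitochondrial folding genes was called variable by the edgeR fit (0.244% of all genes were). At an unadjusted p of 0.05, 0 of them passed, against 7.22% of all genes tested. The ER membrane protein Dnajb14, the member with the smallest unadjusted p (0.0173), is in none of these lists. The difference between compartments was not tested and may depend on which members were listed.

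The 21 genes listed as induced by HSF1, 14 of them members, were read as a group because several were far apart in level. Of these, 20 reached 1 CPM in every library, against 37.9% of all symbols. The edgeR fit called 0 of the list variable, against 0.244% of all genes tested. At an unadjusted p of 0.05 it held 1 (Dnajb1), against 7.22% of all genes tested. The median deviations of the list were 0.02, 0.00 and -0.01 in replicates 1, 2 and 3. Hspa8, Hsp90aa1 and Hsph1 were high, and the stress-inducible Dnajb1 stood at 341 ± 72.6 TPM. Hspa1a, Hspa1b and Hspb1 were low at 13.9 ± 6.86, 4.26 ± 1.29 and 10.2 ± 3.14 TPM, and Bag3 had 8.58, 13.9 and 6.56 CPM. Of the windows of Hspa1a, Hspa1b and Hspb1, 60.3%, 62.3% and 51.6% occur at other loci. For Hspa8 and Hsp90aa1 these shares were 49.0% and 58.5%. Level thus did not follow stress inducibility alone. Dnajb1, Hspa1a and Bag3 were all highest in replicate 2 and lowest in replicate 3, while Hspa1b, Hspb1 and Cryab were lowest in replicate 1. These genes were named after their values were seen. Hspa1b had only 21, 28 and 32 counts and Hspb1 21, 26 and 24 in replicates 1, 2 and 3. Whether these 2 genes moved with the others cannot be told from such values. Over the list, 12, 11 and 8 of 21 genes were above their own mean in replicates 1, 2 and 3. Of the 17 genes of the list in the promoter table, 12 carried an HSE of 2 units, against 17.0% of all genes there. The list was chosen for induction by HSF1, which binds this element, so this share is only a description. The carriers include Hspd1 and Hspe1, which share 1 element, and the near-identical copies Hspa1a and Hspa1b.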

How the data were processed

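Each deposited file gives unnormalized read counts of gene symbols, whole numbers that end with HTSeq's summary lines. Per the submitters' processing notes, STAR 2.0.0e, HTSeq and mm10 were used. For the annotation and the use of strand, the sources used here give nothing, and overlapping or antisense genes may not be separated. Lines naming no gene held 27.8% ± 0.56 of counts (SD, n = 3), 13.3% being reads placed at more than 1 position, and were left out.

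CPM used the total of named genes. TPM divided the counts by merged exon length from GENCODE M21 (mm10), which matched 83 of 83 members and 90.1% of symbols with a count. Log2 values had a pseudocount of 0.5. Variation was tested with edgeR 4.0.16 by the fit of a negative binomial model of 1 mean (TMM, trended dispersion, deviance against a chi-square of 2 degrees of freedom, Benjamini-Hochberg threshold 0.05) on genes that reached 10 counts in any library. Its p-values measure spread beyond the trend of genes at a like level, fitted on these same libraries. Spread that such genes share is not called. The spread may be technical, as the labels do not say whether libraries came from separate mice. The fit was tested on simulated data, where it recovered 21% of 2-fold and 83% of 4-fold shifts in 1 library among better counted genes. Gene pairs were tested by exact sign-flip permutation. Alternatives were limma 3.58.1, DESeq2 1.42.0 size factors, other count minimums, thresholds, pseudocounts, totals and gene lengths, and each replicate left out. Principal and unshared lengths, the TRiC span, family levels by other lengths and the count of members lowest in replicate 3 were chosen after seeing the data.

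The members and lists were chosen with earlier results of these data known. By rule, the text names every HSP90, HSP60, HSP10 and TRiC member and Stip1, the 5 highest and the lowest of other families by TPM, members at 0 counts, the 3 smallest p-values, genes of the 10 pairs, and the highest and lowest of each list by CPM, apart from 2 listed genes whose values are not reported here. The highest and lowest of a list by TPM and other genes were named after their values were seen. Protein sequences were not used here. Other software was Python 3.11.15 (matplotlib 3.10.9, scipy 1.17.1, pandas 2.3.3, numpy 2.4.6) and R 4.3.3.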

Additional observations from a re-analysis of the deposited data

How the results depend on the processing

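No member was called variable by the edgeR goodness of fit or limma under any of the 8 alternatives run. The count of all varying genes was 36 and became 18 at an adjusted p of 0.01, 17 with at least 10 counts in every library, 12 with limma, 26 with no count filter, 37 with DESeq2 size factors, and 16 to 21 with 1 replicate left out. Without Rn45s in the totals, summed CPM became 3646 for HSP90, 4483 for HSP70 and HSP110, 57.0 for small HSPs, 737 for DNAJB, 2361 for DNAJC, 1522 for TRiC and 289.6 for Stip1, each higher by construction. The pair Hsp90ab1 over Hsp90aa1 reversed to -0.18 with unshared exon length. Without a length correction, Dnaja1 over Dnaja2 reversed to 0.38 and Dnajc5 over Dnajb1 to 0.92. The other 7 pairs kept their direction under the alternatives run, although Hspd1 over Hspe1 went from 0.91 to 0.10 with principal transcripts. With a mean in place of a median over members, the range of library deviations became 0.0824 for the HSF1 list and 0.0882 for co-chaperones, and the cause was not tested. Members lowest in replicate 3 numbered 31 to 36 of 71 (43.7% to 50.7%), against 32.0% to 34.3% of all genes under the same scalings. No paired analysis was possible because there is only 1 group. Depth limits the genes at a few counts, where 3 counts equal up to 0.335 CPM, and shared sequence limits Hspa1a, Hspa1b, Hsp90aa1, Hspb1, Hspa8, Hspd1 and Dnajb6.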
